A study of Ovis aries with 12 samples.

Results

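Genes that cells switch on when oxygen is short, together with enzymes of glycolysis, were followed in 12 corpora lutea of sheep (Ovis aries). The panel comprised 10 genes: HIF1A, NDRG1, SLC2A1, ADM, HK2, PGK1, LDHA, ALDOA, ENO1 and BNIP3. Each probe set that the array's annotation assigned to 1 of these symbols, and to no other gene, was taken. This gave 13 probe sets for 9 of the 10 genes, among 24016 probe sets tested and 9155 genes with a symbol of their own. HK2 had 0 such probe sets and was not analysed here. LDHA and BNIP3 had 3 probe sets each, and the brightest over the 12 arrays stood for the gene in counts over genes.

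The corpus luteum is the gland that forms in the ovary after ovulation and makes progesterone. One gland per ewe was measured in 4 groups of 3 ewes: day 14 pregnant, day 14 non-pregnant, day 12 pregnant and day 12 non-pregnant. Pregnant ewes had been mated to a fertile ram, while a vasectomized ram served to detect heat in the unbred, non-pregnant ewes, so the day is a day of pregnancy or of the cycle. The labels name no further treatment, allele, breed or age, and the study's title asks how pregnancy-associated genes take part in resistance to luteolysis, the regression of the gland at the end of an infertile cycle. The labels record no measure of regression, such as progesterone, in the individual ewes.

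In most cells, the alpha subunit HIF1A is made continuously and destroyed while oxygen is plentiful, after prolyl hydroxylases (EGLN enzymes) have marked it for VHL. When oxygen falls, the protein persists, pairs with ARNT and raises transcription of genes for glucose uptake, glycolysis, vessel growth and mitochondrial turnover. Much of this control acts on the protein, which arrays of RNA do not measure. The corpus luteum is among the most densely vascular tissues of the body, and its capillaries are lost when it regresses.

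Values are on the log2 scale, and array medians lay between 5.16 and 5.24. The day 14 non-pregnant glands stood apart from the others on the leading principal component of the whole array (29.6% of the variance). They lay at 18.1, 33.7 and 40.4 (replicates 1, 2 and 3), and the other 9 lay between -13.0 and -7.00. The labels describe 4 arrays by one array name and 8 by another, here batch A and batch B. Replicates 2 and 3 of the day 14 non-pregnant group were in batch A and replicate 1 was in batch B. In the day 14 pregnant group replicate 3 was in batch A and replicates 1 and 2 were in batch B. Each day 14 difference given within a batch thus has a single ewe on one side. The luteal marker genes were bright in each gland. Their mean over 10 of 11 listed genes was 10.70 to 10.86 in day 14 pregnant ewes. It was 10.55, 10.11 and 10.09 in day 14 non-pregnant ewes (replicates 1, 2 and 3), lower in the batch A arrays of that group. It was 10.78 to 10.83 in day 12 pregnant and 10.68 to 10.83 in day 12 non-pregnant ewes.

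Of the panel, NDRG1 and SLC2A1 stood higher in day 14 non-pregnant glands, while HIF1A and the glycolytic enzymes did not pass the test in any comparison. NDRG1 encodes a cytoplasmic protein that is induced by hypoxia and other stresses and is best known from studies of differentiation and metastasis. Its single probe set read 7.63, 7.03 and 7.91 in day 14 pregnant ewes and 9.73, 9.86 and 10.27 in day 14 non-pregnant ewes (replicates 1, 2 and 3). On day 12 it read 8.33, 7.52 and 7.46 in pregnant ewes and 7.54, 7.52 and 7.93 in non-pregnant ewes. Each day 14 non-pregnant value was above all 9 others, and the other groups overlapped one another.

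NDRG1 rose 4.57-fold in day 14 over day 12 non-pregnant glands in the fit with the batch term. The group means without that adjustment were 9.95 ± 0.28 against 7.66 ± 0.23 (SD, n = 3 each). The log2 difference was 2.19 ± 0.30 (SE from limma, Benjamini-Hochberg adjusted p = 0.012). It was 2.07 within batch B, where replicate 1 was the sole day 14 non-pregnant ewe. None of the day 12 non-pregnant arrays was in batch A. NDRG1 was 5.21-fold lower in day 14 pregnant than in day 14 non-pregnant glands (log2 difference -2.38 ± 0.27, adjusted p = 0.00248). Batch A alone gave -2.16 for it, with day 14 pregnant replicate 3 as the sole ewe of its group. Batch B alone gave -2.40, with day 14 non-pregnant replicate 1 as the sole ewe of its group. The day 14 non-pregnant ewes are in both comparisons, so the pair are not independent results. NDRG1 lost the first call when day 12 non-pregnant replicate 2 was left out (adjusted p = 0.0664) or with only the 6 arrays compared. The batch term of that 6-array fit takes up day 14 non-pregnant replicates 2 and 3. Its difference, 2.07, therefore rests on replicate 1 alone of that group. NDRG1 kept the second call in all 21 alternatives.

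SLC2A1 encodes GLUT1, the widely expressed transporter that brings glucose into cells, and is a classic target of HIF. Its single probe set read 8.16, 8.41 and 8.10 in day 14 pregnant ewes and 9.11, 8.73 and 9.26 in day 14 non-pregnant ewes. On day 12 it read 8.40, 8.04 and 8.20 in pregnant ewes and 8.14, 7.90 and 8.0 in non-pregnant ewes. As with NDRG1, all 3 day 14 non-pregnant values were above all 9 others, and replicate 3 was the highest. Replicate 2 was the lowest of the group for SLC2A1, close to the 8.41 of a day 14 pregnant ewe.

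SLC2A1 rose 2.13-fold in day 14 over day 12 non-pregnant glands (1.09 ± 0.17 log2 units, limma adjusted p = 0.0222). Within batch B, with replicate 1 as the sole day 14 non-pregnant ewe, it rose by 1.10. It was 1.80-fold lower in day 14 pregnant than in day 14 non-pregnant glands (-0.85 ± 0.15, adjusted p = 0.0251), at -0.89 in batch A and -0.83 in batch B. The batch A value has a single pregnant ewe and the batch B value a single non-pregnant ewe. Both calls sat near the threshold. The first was lost without day 12 non-pregnant replicate 2 (adjusted p = 0.101) or 3 (0.0793), day 12 pregnant replicate 3 (0.0554), day 14 non-pregnant replicate 1 (0.09) or day 14 pregnant replicate 3 (0.0578). With only the 6 arrays compared this call was lost as well, in a fit whose difference of 1.10 rests on day 14 non-pregnant replicate 1 alone. The second was lost without day 14 non-pregnant replicate 1 (0.0761) or day 14 pregnant replicate 1 (0.0679) or 3 (0.143). It was lost too with only the 6 arrays compared (0.156) and with array weights (0.0565). The second call was also lost in batch B alone and without day 14 non-pregnant replicates 2 and 3 together. Both of these fits keep replicate 1 alone of that group. The log2 difference stayed between 1.0 and 1.19 in the first comparison and between -0.97 and -0.73 in the second over all 21 alternatives.

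**Figure D1:**
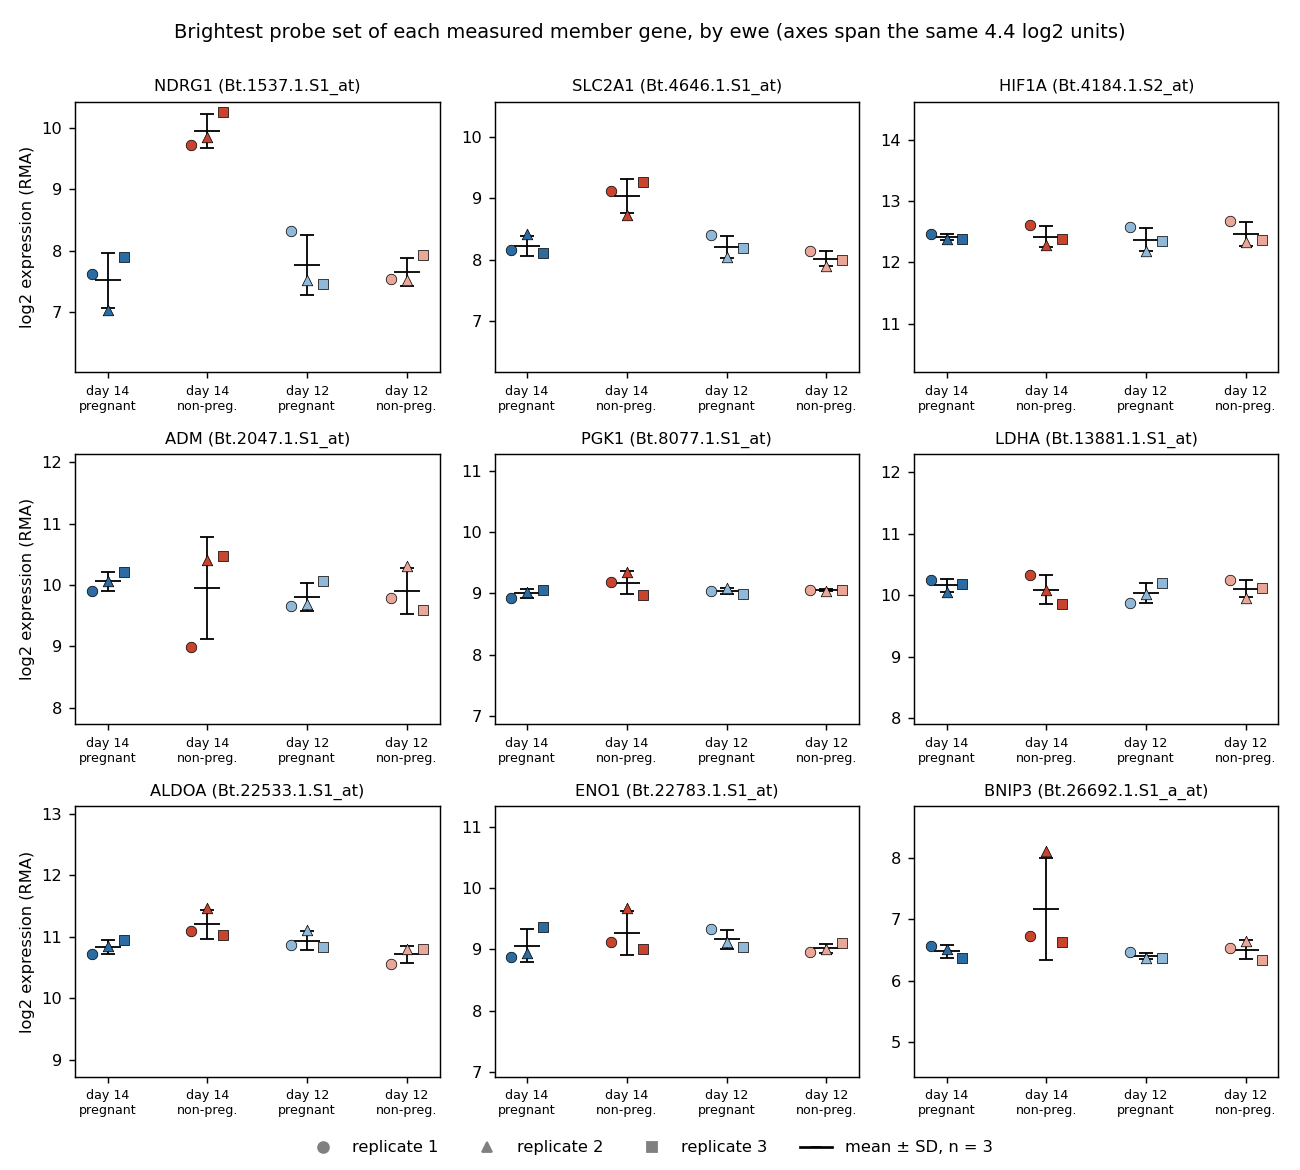
Log2 expression (vertical axes, the same span in each panel) of the brightest probe set of the 9 measured genes, with 1 point per ewe and the mean ± SD of each group (n = 3). The day 14 non-pregnant ewes lie above all others for NDRG1 and SLC2A1, HIF1A stays between 12.19 and 12.68, and replicate 2 of that group (triangle) lies highest for PGK1, ALDOA, ENO1 and BNIP3.

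HIF1A, the regulated subunit itself, did not stand higher in day 14 non-pregnant glands. Its probe set read 12.47, 12.38 and 12.39 in day 14 pregnant ewes and 12.60, 12.28 and 12.37 in day 14 non-pregnant ewes. In day 12 ewes it read 12.57, 12.19 and 12.36 in the pregnant and 12.68, 12.32 and 12.36 in the non-pregnant group. The groups overlapped throughout, and the highest value belonged to a day 12 non-pregnant ewe. The difference was 0.04 between day 14 and day 12 non-pregnant glands (95% interval -0.28 to 0.36, limma adjusted p = 0.953). Between day 14 pregnant and non-pregnant glands it was -0.04 (95% interval -0.34 to 0.25, adjusted p = 0.916). On this probe set the intervals leave room for modest differences in either direction but not for one of the size of NDRG1. The probe set was brighter than 99.6% of all probe sets, and how well the array resolves differences at that level was not tested.

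ADM encodes adrenomedullin, a secreted peptide that widens vessels and is induced by hypoxia. Its probe set read 9.91, 10.07 and 10.21 in day 14 pregnant ewes and 9.00, 10.41 and 10.47 in day 14 non-pregnant ewes. On day 12 it read 9.66, 9.70 and 10.07 in pregnant ewes and 9.79, 10.32 and 9.60 in non-pregnant ewes. The day 14 non-pregnant group thus held both the lowest value of all 12 ewes, in replicate 1, and the pair of highest, in replicates 2 and 3. This split coincides with the batches, since replicate 1 was its sole batch B array, so batch and that ewe cannot be told apart. The difference between day 14 pregnant and non-pregnant glands was -0.22 in batch A, 0.99 in batch B and 0.34 overall (95% interval -0.21 to 0.88, limma adjusted p = 0.562). Between day 14 and day 12 non-pregnant glands it was -0.40 (95% interval -1.0 to 0.20, adjusted p = 0.617), and 0.06 without the batch term. Without day 14 non-pregnant replicate 1 both ADM differences changed sign, to 0.23 over day 12 non-pregnant glands and -0.17 in day 14 pregnant against non-pregnant glands.

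Among the glycolytic enzymes, ALDOA came nearest to the pattern of NDRG1. It encodes aldolase A, which splits fructose bisphosphate into a pair of triose phosphates. Its probe set read 10.72, 10.84 and 10.94 in day 14 pregnant ewes, 11.10, 11.48 and 11.04 in day 14 non-pregnant ewes, 10.86, 11.11 and 10.84 in day 12 pregnant ewes and 10.56, 10.80 and 10.80 in day 12 non-pregnant ewes. The day 14 non-pregnant values were above those of both day 14 pregnant and day 12 non-pregnant ewes but overlapped the day 12 pregnant group. The difference was 0.45 ± 0.16 over day 12 non-pregnant glands (limma adjusted p = 0.279), and -0.35 ± 0.14 in day 14 pregnant against day 14 non-pregnant glands (adjusted p = 0.254). Neither passed.

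PGK1 (phosphoglycerate kinase), an enzyme of the step that first yields ATP in glycolysis, varied little. Its probe set read 8.92, 9.03 and 9.06 in day 14 pregnant ewes, 9.19, 9.35 and 8.98 in day 14 non-pregnant ewes, 9.04, 9.09 and 8.99 in day 12 pregnant ewes and 9.06, 9.04 and 9.06 in day 12 non-pregnant ewes. Replicates 1 and 2 of the day 14 non-pregnant group were the highest of the 12, and replicate 3 lay below all day 12 non-pregnant ewes. The differences were 0.13 over day 12 non-pregnant glands (95% interval -0.13 to 0.38, limma adjusted p = 0.743) and -0.17 in day 14 pregnant against day 14 non-pregnant glands (95% interval -0.41 to 0.06, adjusted p = 0.473).

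ENO1 (enolase), which makes phosphoenolpyruvate, was high in a single day 14 non-pregnant ewe. Its probe set read 8.88, 8.95 and 9.36 in day 14 pregnant ewes, 9.12, 9.68 and 9.01 in day 14 non-pregnant ewes, 9.34, 9.12 and 9.04 in day 12 pregnant ewes and 8.95, 9.01 and 9.10 in day 12 non-pregnant ewes. The day 14 non-pregnant group overlapped all others, and its replicate 2, at 9.68, was the highest of the 12 ewes. The difference over day 12 non-pregnant glands was 0.14 (limma adjusted p = 0.846) and 0.0087 without that ewe. In day 14 pregnant against day 14 non-pregnant glands it was -0.15 (adjusted p = 0.74) and 0.0104 without that ewe.

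LDHA encodes the lactate dehydrogenase subunit that favours lactate formation, and its 3 probe sets disagreed. The brightest read 10.24, 10.05 and 10.18 in day 14 pregnant ewes, 10.33, 10.09 and 9.85 in day 14 non-pregnant ewes, 9.87, 10.01 and 10.20 in day 12 pregnant ewes and 10.24, 9.96 and 10.12 in day 12 non-pregnant ewes. It overlapped across all groups. The second in brightness read 7.69, 7.72 and 8.29 in day 14 pregnant ewes, 8.51, 9.61 and 8.32 in day 14 non-pregnant ewes, 8.40, 7.61 and 7.65 in day 12 pregnant ewes and 8.16, 7.81 and 8.25 in day 12 non-pregnant ewes. It was highest in day 14 non-pregnant replicate 2, and its day 14 non-pregnant values did not overlap those of either day 14 pregnant or day 12 non-pregnant ewes.

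The dimmest LDHA probe set ran the other way. It read 6.80, 7.08 and 7.11 in day 14 pregnant ewes, 6.67, 6.51 and 6.84 in day 14 non-pregnant ewes, 7.15, 7.22 and 7.03 in day 12 pregnant ewes and 6.85, 6.87 and 6.79 in day 12 non-pregnant ewes. In day 14 pregnant against day 14 non-pregnant glands the LDHA probe sets differed by 0.06, -0.84 and 0.33, from the brightest to the dimmest (limma adjusted p = 0.883, 0.243 and 0.218), and none passed. The middle value was -0.51 without day 14 non-pregnant replicate 2. In day 14 over day 12 non-pregnant glands they differed by -0.0028, 0.59 and -0.17 (adjusted p = 0.996, 0.57 and 0.68).

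BNIP3 encodes a mitochondrial outer membrane protein that is induced by hypoxia and promotes the removal of mitochondria by autophagy. Its brightest probe set read 6.57, 6.51 and 6.36 in day 14 pregnant ewes, 6.73, 8.12 and 6.64 in day 14 non-pregnant ewes, 6.47, 6.37 and 6.37 in day 12 pregnant ewes and 6.53, 6.64 and 6.33 in day 12 non-pregnant ewes. Replicate 2 of the day 14 non-pregnant group stood far above the other 11 ewes. The dimmest BNIP3 probe set read 4.78, 6.07 and 4.74 in that group and between 4.36 and 5.08 elsewhere, so it singled out the same ewe. The second did not. The brightest BNIP3 probe set differed by 0.57 over day 12 non-pregnant glands (limma adjusted p = 0.569), and by 0.24 without replicate 2. It differed by -0.63 in day 14 pregnant against day 14 non-pregnant glands (adjusted p = 0.358), at -1.01 in batch A, -0.19 in batch B and -0.22 without replicate 2.

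**Figure D2:**
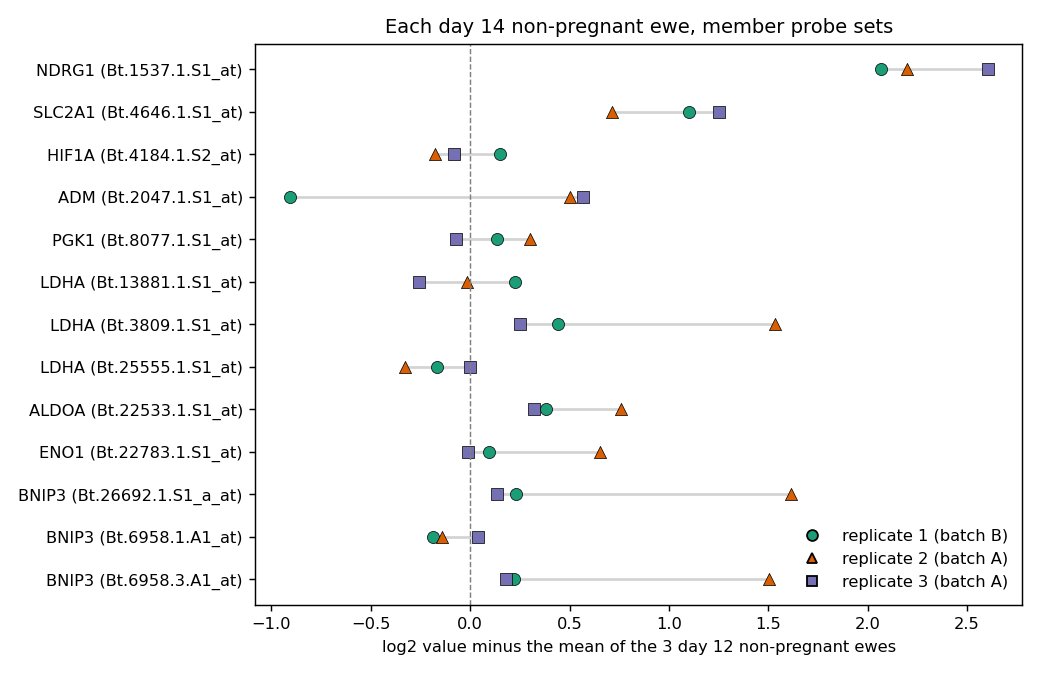
Each day 14 non-pregnant ewe's log2 value minus the mean of the 3 day 12 non-pregnant ewes (horizontal axis) for the 13 probe sets, with 1 symbol per ewe and the probe sets of one gene in order of brightness, brightest on top. For NDRG1 and SLC2A1 all 3 ewes lie to the right of 0, with replicate 3 furthest. All 3 also lie to the right for ALDOA, the second LDHA probe set and the brightest and dimmest BNIP3 probe sets, with replicate 2 furthest. For PGK1 and ENO1 replicate 2 lies furthest to the right, and replicate 3 lies to the left of 0.

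The ewe with the highest NDRG1 and SLC2A1 was therefore not the one with the highest glycolytic enzymes. Day 14 non-pregnant replicate 2 had the highest value of the 12 arrays for 6 of the 13 probe sets (PGK1, the second LDHA probe set, ALDOA, ENO1 and the brightest and dimmest BNIP3 probe sets). Replicate 3 had the highest for 3 of 13, namely NDRG1, SLC2A1 and ADM, and replicate 1 for 1 of 13, an LDHA probe set. Over all genes these arrays held the highest value of 10.8%, 11.4% and 10.7%, in the order replicate 2, 3 and 1. This tally was made after the values had been seen and is a description of 3 animals, with no test.

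Counted over the panel, 2 of 9 genes, NDRG1 and SLC2A1, rose in day 14 over day 12 non-pregnant glands and 0 fell. The other 7 were not called. Of all genes, 0.426% rose and 0.0765% fell in limma. The panel was chosen with earlier results of these data known. Its shares are therefore a description and not a test of the panel against all genes. In 3 of 9 genes, NDRG1, SLC2A1 and ALDOA, the day 14 values were all above the day 12 values, against 10.1% of all genes. The same 3 had an unadjusted p under 0.05 (3 of 9, against 13.3% of all genes). The median log2 difference of the 9 genes was 0.14, and that of all genes was -0.017. In day 14 pregnant against day 14 non-pregnant glands, 2 of 9 were lower and 0 higher, where 1.20% of all genes were lower and 0.743% higher. In 4 of 9, these 3 and BNIP3, the pregnant values were all below the non-pregnant ones, against 8.67% of all genes. An unadjusted p under 0.05 was reached by 3 of 9, against 18.2% of all genes. The median of the 9 genes was -0.17, and that of all genes was 0.026.

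**Figure D3:**
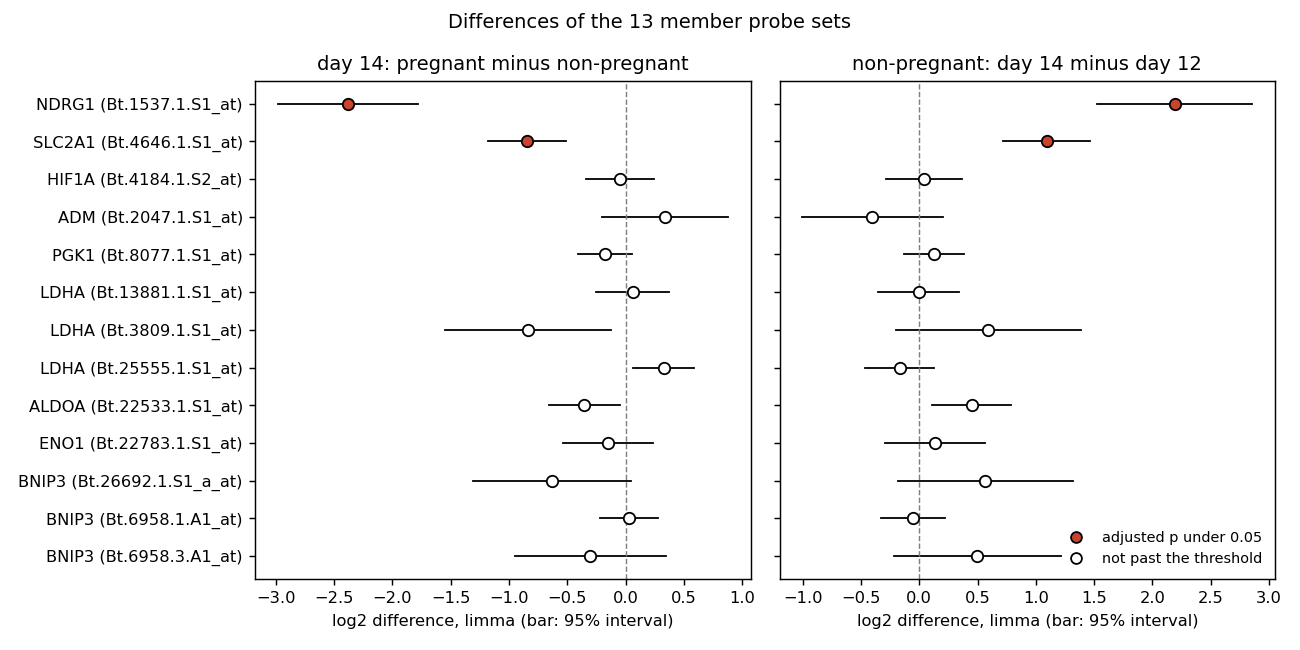
Log2 differences from limma for the 13 probe sets in day 14 pregnant minus day 14 non-pregnant ewes (left) and day 14 minus day 12 non-pregnant ewes (right), with 95% intervals. Filled points mark adjusted p under 0.05, which NDRG1 and SLC2A1 reach in both, and the HIF1A interval spans 0 in both.

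Pregnancy on day 12 and the passage of 2 days in pregnant ewes left the panel without a call. In day 12 pregnant against day 12 non-pregnant glands, 0 of 9 genes passed in limma, and 0% of all genes did. At an unadjusted p under 0.05, 0 of 9 genes passed there, where 8.66% of all genes did. The dimmest LDHA probe set stood at 0.29 (unadjusted p = 0.0318, limma adjusted p = 0.611). NDRG1 differed by 0.06 (95% interval -0.54 to 0.66) and SLC2A1 by 0.23 (-0.10 to 0.57). In day 14 against day 12 pregnant glands, 0 of 9 and 0% of all genes passed, with 0 of 9 and 4.57% at the unadjusted threshold. NDRG1 differed there by -0.25 (95% interval -0.83 to 0.33) and SLC2A1 by 0.01 (-0.31 to 0.33).

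Whether the effect of pregnancy differed between the days was tested as an interaction. NDRG1 had an interaction of -2.44 ± 0.40 (limma adjusted p = 0.0633), SLC2A1 one of -1.08 ± 0.23 (0.155) and ALDOA one of -0.55 ± 0.21 (0.409). None of the 9 genes passed, and 0.109% of all genes did. At an unadjusted p under 0.05 these 3 of 9 passed, against 11.1% of all genes. NDRG1 passed when the batch term was dropped (adjusted p = 0.0169), when batch was a random block (0.0157), and without day 12 pregnant replicate 3 (0.0356) or day 14 non-pregnant replicate 2 (0.0421). SLC2A1 passed without day 14 non-pregnant replicate 2 (0.0402).

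The remaining steps of glycolysis and lactate handling were read from a list of 47 further genes, of which 36 were measured. In day 14 over day 12 non-pregnant glands 0 passed in limma, with 23 of 36 above 0 and a median log2 difference of 0.16. At an unadjusted p under 0.05, 4 of 36 passed there, against 13.3% of all genes. Among these 36, 1 was lower and 0 higher in day 14 pregnant against day 14 non-pregnant glands, with 26 of 36 below 0 and a median of -0.10. Of all genes, 1.20% were lower and 0.743% higher. The unadjusted count was 11 of 36, against 18.2% of all genes, and in 8 of 36 the pregnant values were all below the non-pregnant ones, against 8.67%. The gene that passed was SLC16A1, which encodes MCT1, a carrier of lactate and other monocarboxylates across the cell membrane. It read 5.87, 6.03 and 6.12 in day 14 pregnant ewes and 6.96, 7.19 and 6.60 in day 14 non-pregnant ewes, and the groups did not overlap. Its difference was -0.94 ± 0.17 (adjusted p = 0.0218), at -0.77 in batch A and -1.01 in batch B. SLC16A1 did not pass without day 14 non-pregnant replicate 1 (adjusted p = 0.0625) or without day 14 pregnant replicate 1 (0.062), 2 (0.0639) or 3 (0.0509).

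The enzymes that surround the panel's own in the pathway did not pass, and are named here by their place in it, with their values known. GPI, which interconverts glucose and fructose phosphates, read 10.32, 10.54 and 10.70 in day 14 pregnant ewes and 10.73, 11.21 and 10.84 in day 14 non-pregnant ewes (difference -0.34, limma adjusted p = 0.226). TPI1, which interconverts the triose phosphates, read 10.12, 10.14 and 10.31 in day 14 pregnant ewes and 10.48, 10.88 and 10.31 in day 14 non-pregnant ewes (-0.39, adjusted p = 0.313). For GAPDH, the dehydrogenase that follows, the values were 12.05, 12.06 and 12.10 in day 14 pregnant and 12.17, 12.35 and 12.14 in day 14 non-pregnant ewes (-0.15, adjusted p = 0.531). In each of these 3 enzymes day 14 non-pregnant replicate 2 was the highest of all 12 ewes, as it was for PGAM1, the mutase before enolase, at 9.93. PKM, the pyruvate kinase of the last step, showed no such outlying ewe. It read 5.12, 5.25 and 5.60 in day 14 pregnant ewes and 5.74, 5.74 and 5.77 in day 14 non-pregnant ewes (-0.40, adjusted p = 0.135). HK1, a hexokinase of the first step, overlapped between day 14 pregnant and non-pregnant ewes, with a difference of -0.01 (adjusted p = 0.97).

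Over the 36 genes, day 14 non-pregnant replicate 2 held the highest value of 10 (27.8%), replicate 3 of 6 (16.7%) and replicate 1 of 0. Over 31 measured genes of a list of 46 further hypoxia-induced genes, replicate 3 held the highest value of 10 (32.3%), replicate 2 of 8 (25.8%) and replicate 1 of 4 (12.9%). Over all genes, replicates 2, 3 and 1 held 10.8%, 11.4% and 10.7%. Both lists hold TPI1. Replicates 2 and 3 were the batch A arrays of the group, and the part of batch in these counts was not tested.

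**Figure D4:**
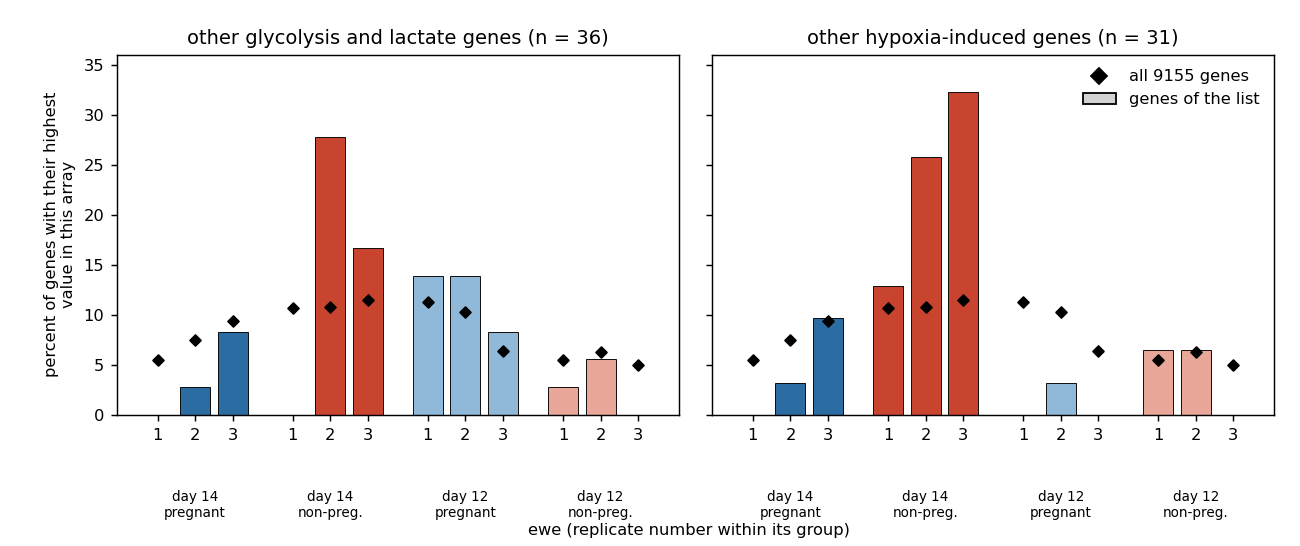
Percent of genes with their highest value in each of the 12 arrays (bars, by group and replicate) for 36 further glycolysis and lactate genes (left) and 31 further hypoxia-induced genes (right), with the percent over all 9155 genes as diamonds. Day 14 non-pregnant replicate 2 holds 27.8% of the glycolysis genes and 25.8% of the hypoxia-induced genes, against 10.8% of all genes. Replicate 3 holds 16.7% and 32.3%, against 11.4%, the largest share of the hypoxia-induced genes. Replicate 1 holds none of the glycolysis genes.

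Of the further hypoxia-induced genes, 26 of 31 stood below 0 in day 14 pregnant against day 14 non-pregnant glands, with a median of -0.21. In limma 1 was lower and 1 higher, where 1.20% of all genes were lower and 0.743% higher. At an unadjusted p under 0.05, 12 of 31 passed there, against 18.2% of all genes. The groups did not overlap in 9 with pregnant values lower (8.67% of all genes) and in 2 with pregnant values higher (11.8%). In day 14 over day 12 non-pregnant glands 0 of 31 rose and 1 fell, where 0.426% of all genes rose and 0.0765% fell. The difference was above 0 in 19 of 31, with a median of 0.063. There 7 of 31 had an unadjusted p under 0.05 (13.3% of all genes), and the day 14 values were all above those of day 12 in 6 (10.1%) and all below in 1 (12.4%). VEGFA, the main growth factor for blood vessels and itself a HIF target, was opposite in direction to NDRG1 and SLC2A1. It read 10.36, 10.45 and 10.66 in day 14 pregnant ewes and 8.78, 8.21 and 9.23 in day 14 non-pregnant ewes. On day 12 it read 10.50, 9.85 and 10.30 in pregnant ewes and 10.31, 10.21 and 10.04 in non-pregnant ewes. The 3 day 14 non-pregnant values were the lowest of the 12.

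VEGFA fell by 1.52 log2 units in day 14 against day 12 non-pregnant glands (limma adjusted p = 0.0386) and was 1.79 ± 0.24 higher in day 14 pregnant than in day 14 non-pregnant glands (adjusted p = 0.00536). The first call held in 3 of 12 fits that left out 1 array, and was lost with adjusted p between 0.0579 and 0.139 in those that left out day 12 non-pregnant replicate 1, 2 or 3, day 12 pregnant replicate 2 or 3, day 14 non-pregnant replicate 1 or day 14 pregnant replicate 1, 2 or 3. The second VEGFA call was lost without day 14 pregnant replicate 3 (adjusted p = 0.0584). PLIN2, which coats lipid droplets, went with NDRG1. It read 6.80, 7.03 and 7.30 in day 14 pregnant ewes and 9.64, 9.38 and 10.40 in day 14 non-pregnant ewes, with no overlap. The difference was -2.61 ± 0.39 (adjusted p = 0.0084), and the PLIN2 call was lost without day 14 pregnant replicate 3 (0.0788). Its difference between day 14 and day 12 non-pregnant glands, 2.11 ± 0.43, did not pass (0.0696).

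Of the genes that make or control HIF, 14 of 25 listed were measured besides HIF1A. In day 14 over day 12 non-pregnant glands 0 passed in limma, and in day 14 pregnant against day 14 non-pregnant glands 1 was lower, as were 1.20% of all genes. At an unadjusted p under 0.05, 3 of 14 passed in each, where 13.3% and 18.2% of all genes did in the same order. EPAS1, the HIF2 alpha subunit, read 8.10, 7.91 and 8.57 in day 14 pregnant ewes and 8.37, 7.86 and 7.37 in day 14 non-pregnant ewes (difference 0.30, adjusted p = 0.679). ARNT, the partner subunit, read 4.91, 4.98 and 5.25 in day 14 pregnant ewes and 4.73, 5.40 and 5.11 in day 14 non-pregnant ewes (0.05, adjusted p = 0.913). EGLN1, the main oxygen-sensing hydroxylase, read 11.03, 10.94 and 11.19 in day 14 pregnant ewes and 10.66, 10.90 and 10.39 in day 14 non-pregnant ewes (0.47, adjusted p = 0.138). These regulators are named by role with their values known, and none of the 3 passed.

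The gene that passed was HSP90AA1, a heat shock chaperone that binds HIF1A among many other proteins. It read 9.26, 8.82 and 9.32 in day 14 pregnant ewes and 9.98, 9.92 and 9.74 in day 14 non-pregnant ewes (-0.72 ± 0.15, limma adjusted p = 0.0427). HSP90AA1 passed in 2 of 12 fits that left out 1 array, those without day 12 non-pregnant replicate 2 and without day 14 non-pregnant replicate 3. The adjusted p ranged up to 0.174 in the other 10.

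Relatives of the single panel genes added 1 call. Of the receptor and processing genes of adrenomedullin, 5 of 8 were measured and 0 passed in either comparison (2 and 1 at an unadjusted p under 0.05, for day 14 over day 12 non-pregnant and for day 14 pregnant against non-pregnant glands, where 13.3% and 18.2% of all genes passed). NDRG2, NDRG3 and NDRG4 were all measured, and 0 passed (0 at an unadjusted p under 0.05), with differences between 0.067 and 0.37 in day 14 over day 12 non-pregnant glands. Of 10 measured BNIP3 relatives and mitophagy genes of 12 listed, 0 passed in the first comparison (3 unadjusted, against 13.3% of all genes). In the second, 1 was lower, as were 1.20% of all genes (2 unadjusted, against 18.2%). RHEB, a small GTPase that activates mTORC1, read 10.93, 11.02 and 10.90 in day 14 pregnant ewes and 11.35, 11.43 and 11.49 in day 14 non-pregnant ewes (-0.47 ± 0.086, limma adjusted p = 0.0252). The RHEB call was lost without day 14 non-pregnant replicate 3 (adjusted p = 0.051) or day 14 pregnant replicate 1 (0.063) or 3 (0.147). BNIP3L, the closest relative of BNIP3, read 10.91, 10.77 and 10.82 in day 14 pregnant ewes and 10.82, 10.97 and 11.04 in day 14 non-pregnant ewes (-0.08, adjusted p = 0.722).

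**Figure D5:**
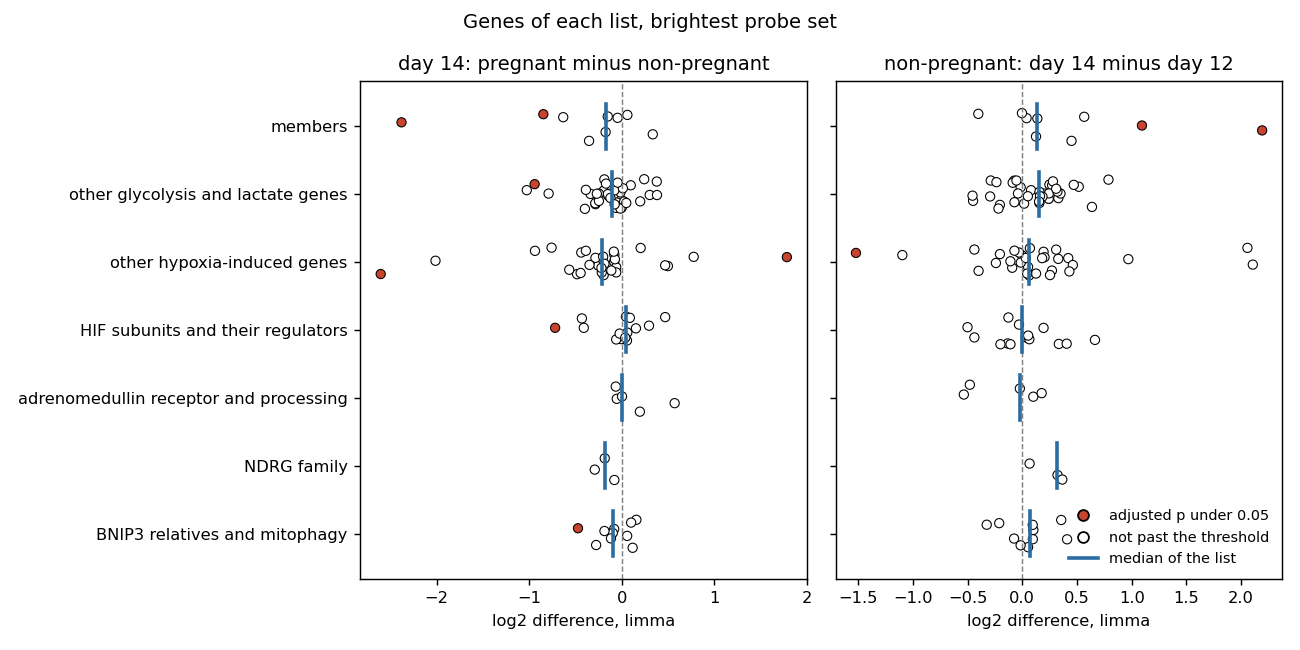
Log2 differences from limma of single genes (points, brightest probe set) in 7 lists, for day 14 pregnant minus day 14 non-pregnant ewes (left) and day 14 minus day 12 non-pregnant ewes (right), with list medians as vertical bars. Filled points passed the threshold. Most genes of each list lie near 0, NDRG1 and PLIN2 lie far to one side, and VEGFA lies far to the other. SLC2A1 lies at -0.85 (left) and 1.09 (right), and the glycolysis list reaches -1.03 and 0.79.

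Genes whose profile over the 12 arrays was nearest to that of NDRG1 and SLC2A1 were ranked by the root mean square difference after each gene was centred on its own mean. The nearest were taken from 8955 genes, after provisional symbols such as those that begin with LOC were set aside, and ranks of panel genes are given among all 9154 other genes. For NDRG1, whose own deviations had a root mean square of 1.05, the nearest 5 were THBS1 at 0.295, CDH1 at 0.323, F2RL2 at 0.343, ABCC3 at 0.392 and F2RL1 at 0.424. THBS1 encodes thrombospondin 1, a matrix protein that restrains vessel growth, CDH1 encodes E-cadherin, F2RL1 and F2RL2 encode protease-activated receptors, and ABCC3 encodes an efflux transporter. SLC2A1 ranked 84 of 9154 in likeness to NDRG1, and NDRG1, with its wider spread, ranked 8876 of 9154 in likeness to SLC2A1. For SLC2A1, whose own deviations had a root mean square of 0.424, the nearest 5 were MAP6D1 at 0.177, AGO2 at 0.180, ATP6V1E1 at 0.194, RSBN1 at 0.196 and ZNF706 at 0.199. No gene of the panel was among the nearest 5 of either. The measure favours genes with a spread like the target's, and it rests on 12 arrays of which 3 stand apart.

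Markers of the gland's cell types also differed between these groups. In whole-gland RNA, fewer cells of a type and less RNA per cell cannot be told apart. Of 10 luteal markers, 2 were higher in day 14 pregnant than in day 14 non-pregnant glands in limma, STAR (0.74 ± 0.13, adjusted p = 0.0245) and NR5A2 (1.16 ± 0.12, adjusted p = 0.00148), and 0 were lower. Of all genes, 0.743% were higher and 1.20% lower. STAR carries cholesterol into mitochondria for steroid synthesis, and NR5A2 is a nuclear receptor of steroidogenic cells. CYP11A1 and HSD3B1, enzymes of progesterone synthesis, stood at 0.43 (adjusted p = 0.0769) and 0.62 (0.0556). The STAR call was lost without day 14 non-pregnant replicate 3 (0.0506) or without day 14 pregnant replicate 1 (0.0597), 2 (0.0612) or 3 (0.146).

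The luteal markers differed in day 14 over day 12 non-pregnant glands as well. Of the 10, 9 stood below 0, with a median of -0.40 against -0.017 for all genes. NR5A2 fell by 0.86 ± 0.14 log2 units (limma adjusted p = 0.0239), and it was the 1 that passed, where 0.0765% of all genes fell. In 5 of 10 the day 14 values were all below those of day 12, against 12.4% of all genes. In day 14 pregnant against non-pregnant glands 9 of 10 stood above 0, with a median of 0.44, and in 7 of 10 the pregnant values were all higher, against 11.8% of all genes. The NR5A2 fall did not pass without day 12 non-pregnant replicate 2 (0.101) or 3 (0.0932), day 12 pregnant replicate 3 (0.0669), day 14 non-pregnant replicate 1 (0.103) or day 14 pregnant replicate 3 (0.0526).

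Of 13 endothelial markers, CD34 (1.09 ± 0.16, limma adjusted p = 0.0083) and TIE1 (0.48 ± 0.088, adjusted p = 0.0266) were higher in day 14 pregnant than in day 14 non-pregnant glands. Of all genes, 0.743% were higher there. Of the 13, 9 stood above 0 and 4 below, with a median of 0.095 and a lowest difference of -0.40. CD34 was lost without day 14 pregnant replicate 3 (0.0799). TIE1 was lost without day 14 non-pregnant replicate 1 (0.0846) or 3 (0.0524) or day 14 pregnant replicate 1 (0.0691), 2 (0.0678) or 3 (0.093). The mean over the 13 ran from 7.26 to 7.40 in day 14 pregnant and from 7.24 to 7.30 in day 12 non-pregnant ewes. In day 14 non-pregnant ewes it was 7.38 in replicate 1 (batch B) and 6.87 and 7.08 in replicates 2 and 3 (batch A). Batch and ewe cannot be told apart in this split. None of the 13 passed in day 14 over day 12 non-pregnant glands in limma (4 at an unadjusted p under 0.05, against 13.3% of all genes). In 5 of 13 the day 14 values were all below those of day 12, against 12.4% of all genes, and in 0 all above. By the sign of the difference, 6 stood above 0 and 7 below, with a median of -0.098.

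Of 13 fibroblast and smooth muscle markers, CNN1, a calponin of smooth muscle, was lower in day 14 pregnant than in day 14 non-pregnant glands (-1.54 ± 0.15, limma adjusted p = 9.74e-04), and it rose by 1.38 ± 0.16 in day 14 over day 12 non-pregnant glands (adjusted p = 0.00525). Of all genes, 1.20% were lower in the pregnancy comparison and 0.426% rose in the other. Of the 13, 9 stood below 0 and 4 above in day 14 over day 12 non-pregnant glands, with a median of -0.10 and a lowest difference of -0.92. There 5 of 13 had an unadjusted p under 0.05, against 13.3% of all genes. In day 14 pregnant against non-pregnant glands 7 stood above 0 and 6 below, with a median of 0.049 and a highest difference of 0.72. CNN1 also passed the interaction (-1.43 ± 0.22, adjusted p = 0.0456), a call lost in 10 of 12 fits that left out 1 array.

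Of 11 macrophage and leukocyte, 6 neutrophil and 6 red blood cell markers, 0 passed in limma in either comparison. At an unadjusted p under 0.05, 3, 0 and 1 passed in day 14 pregnant against non-pregnant glands, against 18.2% of all genes. In day 14 over day 12 non-pregnant glands 0, 0 and 0 did, against 13.3%. The means of these marker lists ran from 5.38 to 5.70, 4.32 to 4.39 and 3.65 to 3.85 in day 14 pregnant ewes. They ran from 5.44 to 5.89, 4.48 to 4.59 and 3.48 to 3.81 in day 14 non-pregnant ewes. The macrophage and leukocyte mean was 5.44 in day 14 non-pregnant replicate 1 (batch B). It was 5.82 and 5.89 in replicates 2 and 3 (batch A). The array's own controls for RNA integrity, the log2 signal at the 3′ end minus that at the 5′ end, averaged over actin and GAPDH, ran from 1.44 to 1.60 in day 14 pregnant, from 1.29 to 1.43 in day 14 non-pregnant and from 1.42 to 1.47 in day 12 non-pregnant ewes. The part of cell makeup and RNA integrity in the NDRG1 and SLC2A1 differences was not tested.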

How the data were processed

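The deposited log2 values came from RMA, and the submitters' processing notes name Affymetrix Expression Console with it. The method brings the arrays to one distribution and gives no detection calls. Sheep RNA was hybridised to bovine probes, so mismatches lower some signals and levels of different probe sets were not compared. No sequences were used here. The software version is not given in the sources used here.

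Of 24128 probe sets, 112 controls were left out. GEO's annotation of the array supplied symbols: 13292 probe sets had 1, 86 several and 10638 none. Groups came from the source label, since 9 of 12 titles conflict with it. Replicates were numbered in accession order. No 2 arrays were identical.

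All 12 arrays entered 1 fit of a mean per group plus an additive batch term in limma 3.58.1 (R 4.3.3, 7 residual and 4.39 prior degrees of freedom). The moderated test was two-sided, with Benjamini-Hochberg adjustment over 24016 probe sets and a threshold of 0.05. Errors after a log2 difference are standard errors from this fit. Per the labels the arrays came from separate ewes, and their number limits the precision. The fit was tested on simulated data. The genes, lists and tests were chosen with earlier results of these data known. All panel probe sets, and list genes past the threshold, are named. Genes outside that rule are named by role.

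The alternatives tried were batch as a random block, a fit lacking the batch term, only the groups compared, dim probe sets left out, median centring, array weights, a robust trended prior, batch B alone, each array left out in turn, every probe set counted and, added after seeing the data, day 14 non-pregnant replicates 2 and 3 left out together. Batch B alone and this last fit keep replicate 1 as the sole day 14 non-pregnant ewe. With only the non-pregnant groups compared, the batch term takes up replicates 2 and 3, so that difference rests on replicate 1 too.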

Additional observations from a re-analysis of the deposited data

Results flagged for a closer look

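The effect of pregnancy on CNN1, the smooth muscle calponin, differed between the days by the test of the interaction. The log2 difference between pregnant and non-pregnant glands was -1.54 on day 14 and -0.11 on day 12, and the difference of these was -1.43 ± 0.22 (limma adjusted p = 0.0456). The 3 day 14 non-pregnant ewes, at 7.61 to 7.98, lay above the other 9. The CNN1 call was lost in 10 of 12 fits that left out 1 array, with adjusted p up to 0.161, and passed without day 14 non-pregnant replicate 2 or 3. No gene of the hypoxia and glycolysis panel passed the interaction.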

How the results depend on the processing

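Counts of panel genes past the threshold were recomputed under 22 alternatives (21 for the interaction, where a fit of only the groups compared is the fit already made). In day 14 over day 12 non-pregnant glands the count was 2, and 16 alternatives gave the same. It was 0 with only the groups compared, and ranged from 0 to 2 when single arrays were left out. In day 14 pregnant against day 14 non-pregnant glands it was 2, and 15 alternatives gave the same. It was 1 with only the groups compared, with array weights, in batch B alone and with day 14 non-pregnant replicates 2 and 3 both left out, and ranged from 1 to 2 when single arrays were left out. The interaction count was 0, and 1 with no batch term or with batch as a random block, ranging from 0 to 2 when single arrays were left out. In the other 2 comparisons it was 0 under all 22.

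No called value changed sign. Of 1352 recomputed differences of panel probe sets, 1332 kept their side of the threshold, 15 lost it and 5 gained it. SLC2A1 accounted for 13 of the 15 losses. Of differences that were not called, ADM and HIF1A in day 14 over day 12 non-pregnant glands changed sign without the batch term. Outside the panel, 10 of the 13 calls named from the lists in these 2 comparisons were lost with only the groups compared (adjusted p 0.0776 to 0.371), 7 with day 14 non-pregnant replicates 2 and 3 left out, 6 in batch B alone, 3 with array weights and 1 with a robust trended prior. The cause of these changes was not tested.

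Over all probe sets, the count of 94 in day 14 over day 12 non-pregnant glands ranged from 1 (only the groups compared) to 462 (batch as a random block). The 348 in day 14 pregnant against day 14 non-pregnant glands ranged from 24 (only the groups compared) to 531 (no batch term), and the 21 of the interaction from 1 to 76. The day 12 comparison gave 0, and up to 5 without day 14 pregnant replicate 1.

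No paired analysis was possible because the labels pair no ewes and the replicate numbers only follow the order of accession. With 3 ewes a group, in batches that cross the groups unevenly, differences well under 1 log2 unit can be missed.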
